A study of Mus musculus with 4 samples.

Results

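The comparison set a library of sorted tumour cells taken 3 days after cisplatin against a library taken 1 day after it. Its members are all barcodes of these 2 libraries with at least 500 detected genes and at most 10% of their unique molecular identifiers (UMIs, counted molecules) from mitochondrial genes. This left 12448 barcodes, 7484 on day 1 and 4964 on day 3, of 23294 that pass the same limits in the 4 libraries of the series. Wild-type C57/bl6 mice carried subcutaneous TC-1 tumours, grown from 300000 cells of a transplantable mouse lung epithelial tumour line. Both groups received cisplatin once by the intraperitoneal route, at 6 mg/kg, when the tumour measured 40 mm², and their labels differ in the day of collection. The sort kept CD45+ CD90+ CD127+ cells without lineage markers, and the label calls them innate lymphoid cells. A PBS library and a day 7 library completed the series and entered no ratio, and PBS levels are printed for orientation. The age of the mice and the number of tumours pooled are not given in the sources used here.

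Each day is 1 library, so no test was possible and no p-value, standard error or replicate spread is given. Expression is the summed UMI count of a gene over the kept barcodes, scaled to the library total and printed as CPM, and a difference is the log2 ratio of day 3 to day 1 with an exact binomial 95% interval. The intervals cover counting error only, and day, tumour, sort and library cannot be told apart. In such summed counts, fewer cells of a type and less RNA per cell cannot be told apart either.

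The libraries held 10745 and 6264 barcodes with 82493626 and 36587207 UMIs, and kept barcodes had a median of 9120 UMIs on day 1 and 6217 on day 3. More than 10% mitochondrial UMIs were found in 3102 barcodes on day 1 and 1196 on day 3, and these were left out. The same barcode sequence occurred in both libraries 32 times, of which 16 pairs were kept on both sides. Macrophage RNA was common under a label of innate lymphoid cells. Macrophage-gated barcodes, defined by at least 2% of UMIs from 11 macrophage genes and at most 1 UMI from 16 lymphoid genes, made up 58.4% of kept barcodes on day 1 and 47.2% on day 3. Lymphoid-gated barcodes, with at least 5 lymphoid UMIs and at most 1% macrophage UMIs, made up 5.21% (4.72 to 5.74%) and 13.6% (12.7 to 14.6%). A further 13.7% and 9.53% held RNA of both kinds, and 22.7% and 29.6% met none of these definitions. The 16 lymphoid genes are mainly T and NK cell genes, so the gates do not separate innate lymphoid cells from T cells. These gates are ranges of a per-barcode measure and not cell types, and 255 and 304 barcodes lay within 10% of the macrophage limit.

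Cisplatin is a platinum drug that crosslinks DNA and kills dividing cells. Type I interferons are secreted in response to nucleic acids of viruses or damaged cells and switch on genes that carry a DNA element, the interferon-stimulated response element (ISRE). Interferon-gamma comes mainly from lymphocytes, and its target genes often carry the gamma-activated site (GAS). In tumours, circulating Ly6C-positive monocytes enter and mature into macrophages, beside macrophages with a tissue-resident expression programme.

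Of 12932 genes with at least 50 UMIs over both libraries, 578 were at least 2-fold higher on day 3 and 1099 were at least 2-fold lower. These are 4.47% and 8.5% of the genes tested, the background against which each list below is read. The median log2 ratio over all of them was -0.10. Among the 15 highest genes, ranked by the interval bound nearer to 1, were Isg15, Ifit1bl1, Slfn4, Phf11a, Ly6c2 and Plac8. Among the 15 lowest were Cd163, Lyve1 and Cd209f of macrophages, Ngp and S100a9 of neutrophils, the mast cell protease Mcpt2 and the small heat shock protein Hspb1.

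**Figure D1:**
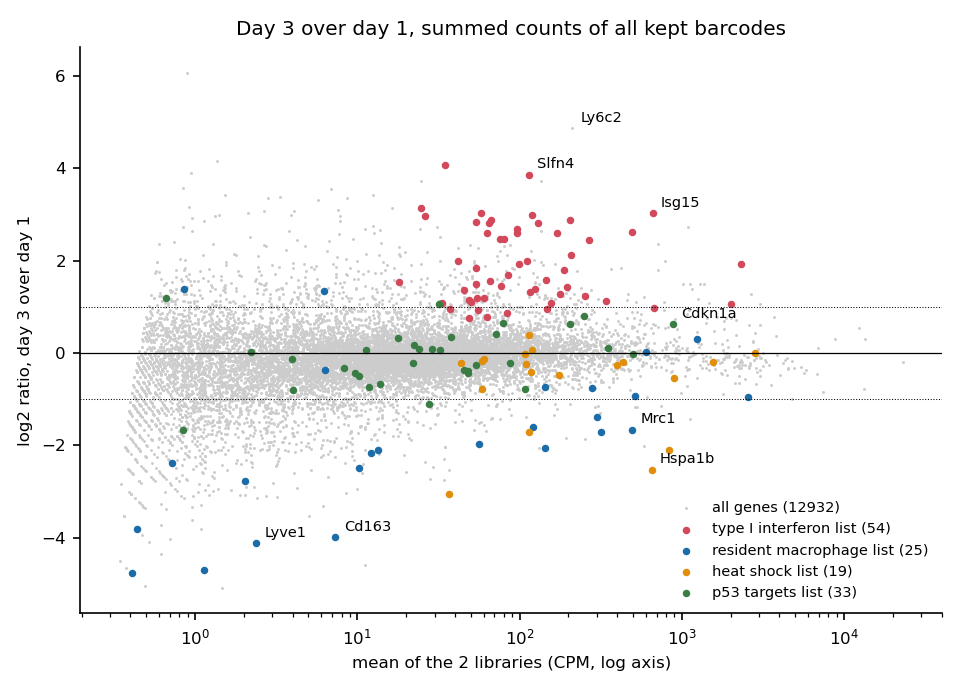
Each point is a gene with at least 50 UMIs, placed by its mean CPM in the 2 libraries (log axis) and its log2 ratio of day 3 over day 1, with dotted lines at 2-fold and genes without a UMI on one side drawn at the ratio to a floor of 3 counts. The type I interferon list lies above 0 in all 54 points, and 16 of the 25 resident macrophage points lie at or below -1.

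Genes induced by type I interferon were higher on day 3 as a group. Of 56 listed genes, 55 are in the features and 54 had enough UMIs, and 47 of these 54 were at least 2-fold higher and none was 2-fold lower. The median log2 ratio of the list was 1.74, beside -0.10 over all genes. The summed level of the list went from 5270 CPM on day 1 to 17023 CPM on day 3, with 4918 CPM in the PBS library. Isg15, a ubiquitin-like protein that is attached to other proteins in the antiviral response (chr4:156199424-156200818, mm10), stood at 144 CPM on day 1 and 1179 CPM on day 3. That is a log2 ratio of 3.03 (3.00 to 3.06), and its PBS level was 94.1 CPM. Ifit1 and Ifit3, which bind foreign RNA and support antiviral signalling, were at 48.2 and 49.2 CPM on day 1 against 291 and 362 CPM on day 3. The day 1 levels of these genes were closer to the PBS levels, 34.6 CPM for Ifit1 and 38.9 CPM for Ifit3, than to day 3.

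Rsad2, the antiviral enzyme viperin, went from 83.3 to 456 CPM. Irf7, the transcription factor that amplifies type I interferon production, went from 138 to 847 CPM, a log2 ratio of 2.61 (2.58 to 2.65). Slfn4, a Schlafen family gene of myeloid cells, was at 14.7 CPM on day 1 and 213 CPM on day 3 (log2 ratio 3.86, 3.77 to 3.95). Ifit1bl1, a relative of Ifit1, had the largest log2 ratio of the list, 4.08 (3.90 to 4.26). Isg20, an RNA exonuclease, stood at 12.7 and 103 CPM. Members of near-identical families, such as Phf11a (log2 ratio 3.73), Phf11b (2.98), Ifit3b (3.14), Apol9a (3.36) and Apol9b (3.32), are uncertain as single genes because reads of their copies may be shared.

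The interferon genes themselves were rare. Ifnb1, the type I interferon made by many cell types, had 35 UMIs on day 1 and 131 on day 3, which is 0.460 and 3.78 CPM (log2 ratio 3.04, 2.49 to 3.62). Ifng was counted 1340 and 1977 times, or 17.6 and 57.1 CPM, a log2 ratio of 1.70 (1.59 to 1.80). Both ligands were thus at higher summed levels on day 3. Other cytokines in the higher group were Il27, with 182 and 291 UMIs, and Tnf, with 130 and 263 CPM. Of 21 measured cytokine genes, 9 were at least 2-fold higher and none was 2-fold lower.

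The promoters of several of these genes carry the letters of the ISRE, read here as GAAA, any 2 bases and GAAA again. The 7 sequences below are the 250 bases before the start of each gene in RefSeq (build GRCm38.p6), read on the strand of the gene from 5′ to 3′, with the matches on either strand in capitals. They were chosen after the values had been seen, to show several matches, 1 match and none. Isg15 lies on the minus strand (chr4:156200819-156201068), as do Rsad2 (chr12:26456453-26456702) and Cxcl10 (chr5:92348890-92349139). Ifit1 (chr19:34640639-34640888), Ifit3 (chr19:34583279-34583528), Gbp2 (chr3:142620413-142620662) and Slfn4 (chr11:83174936-83175185) lie on the plus strand.
Isg15: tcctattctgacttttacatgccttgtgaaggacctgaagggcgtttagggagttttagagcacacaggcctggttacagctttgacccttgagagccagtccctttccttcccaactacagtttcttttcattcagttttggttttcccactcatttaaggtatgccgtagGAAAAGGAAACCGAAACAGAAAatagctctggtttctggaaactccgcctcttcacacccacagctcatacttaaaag
Ifit1: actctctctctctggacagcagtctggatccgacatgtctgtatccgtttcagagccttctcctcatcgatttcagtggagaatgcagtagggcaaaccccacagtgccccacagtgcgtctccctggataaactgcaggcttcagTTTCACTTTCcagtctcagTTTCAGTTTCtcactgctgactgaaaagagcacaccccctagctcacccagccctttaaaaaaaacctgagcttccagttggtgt
Ifit3: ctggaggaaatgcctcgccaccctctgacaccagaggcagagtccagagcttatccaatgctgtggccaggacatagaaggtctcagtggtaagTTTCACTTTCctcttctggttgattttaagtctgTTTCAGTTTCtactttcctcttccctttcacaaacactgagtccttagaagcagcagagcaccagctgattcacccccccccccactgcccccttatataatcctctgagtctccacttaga
Rsad2: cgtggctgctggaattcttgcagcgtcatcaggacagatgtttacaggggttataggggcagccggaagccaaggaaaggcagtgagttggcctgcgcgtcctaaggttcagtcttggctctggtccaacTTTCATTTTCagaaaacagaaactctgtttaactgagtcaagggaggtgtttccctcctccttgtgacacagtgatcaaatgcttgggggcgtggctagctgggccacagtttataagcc
Cxcl10: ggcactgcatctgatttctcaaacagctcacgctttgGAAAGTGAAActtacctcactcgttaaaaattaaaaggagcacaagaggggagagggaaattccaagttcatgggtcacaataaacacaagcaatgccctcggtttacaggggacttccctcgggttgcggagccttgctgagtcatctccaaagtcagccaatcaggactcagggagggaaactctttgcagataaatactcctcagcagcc
Gbp2: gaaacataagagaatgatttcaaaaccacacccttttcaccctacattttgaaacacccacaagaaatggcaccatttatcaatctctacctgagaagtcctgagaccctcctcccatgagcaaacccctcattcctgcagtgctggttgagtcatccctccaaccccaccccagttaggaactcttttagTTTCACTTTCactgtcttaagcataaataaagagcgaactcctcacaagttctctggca
Slfn4: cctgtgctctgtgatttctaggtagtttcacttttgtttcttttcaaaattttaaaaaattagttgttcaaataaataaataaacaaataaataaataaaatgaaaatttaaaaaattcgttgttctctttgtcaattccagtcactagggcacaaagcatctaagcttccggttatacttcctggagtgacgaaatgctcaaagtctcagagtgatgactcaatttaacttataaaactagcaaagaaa

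Isg15 has 3 overlapping matches in 1 run that begins 78 bases before the start. Ifit1 and Ifit3 have 2 matches each, and Rsad2, Cxcl10 and Gbp2 have 1 each. The Slfn4 window holds none in these letters, although its ratio was among the largest. A match is a string of letters and not a shown binding site.

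Over all genes, the motif was more frequent among those higher on day 3. Promoters on chromosomes other than 18 were matched by symbol for 9891 of the tested genes. The ISRE letters on either strand were present in 16.5% of 423 genes at least 2-fold higher (13.1 to 20.4%), in 3.02% of 762 genes at least 2-fold lower (1.92 to 4.49%) and in 2.93% of 8706 others (2.58 to 3.31%). Among all 27025 genes of the promoter table, again without chromosome 18, the share was 3.46%. A gene was counted when any of its promoters held the letters. The GAS letters TTCNNNGAA were found in 11.8% of the higher genes, 6.43% of the lower genes and 7.02% of the others, with 8.13% in the whole table. The letters ACGTG, the core of hypoxia response elements, were in 16.3%, 19.0% and 25.9%, with 18.5% in the whole table. Within the lists, 18 of 43 type I interferon genes and 12 of 24 interferon-gamma genes with a promoter held the ISRE letters, and 11 of the 24 held TTCNNNGAA.

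Genes of the interferon-gamma response were also higher. Of 36 listed genes, 34 had enough UMIs, 29 were at least 2-fold higher and none was 2-fold lower, with a median log2 ratio of 1.66. Cxcl9 and Cxcl10, ligands of the receptor CXCR3 on T and NK cells, went from 162 to 572 CPM and from 231 to 1186 CPM. For Cxcl10 the log2 ratio was 2.36 (2.34 to 2.39), and the PBS level, 244 CPM, was near that of day 1. Acod1, which makes itaconate in activated macrophages, was at 8.18 and 53.9 CPM. Il18bp, a secreted inhibitor of interleukin-18, stood at 26.96 and 134 CPM, and Igtp, an interferon-inducible GTPase, at 31.5 and 137 CPM. The type I and interferon-gamma lists overlap in the pathways they report, so the pair of medians does not separate the ligands.

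Antigen presentation moved in the same direction. In the MHC class II list, 7 of 11 genes were at least 2-fold higher and none lower, with a median of 1.28. H2-Ab1, a class II chain that presents peptides to CD4 T cells, was at 715 CPM on day 1 and 2012 CPM on day 3, with 233 CPM in the PBS library. Cd74, the invariant chain, stood at 1555 and 3775 CPM. Ciita, the transcriptional master regulator of class II genes, was at 4.46 and 10.9 CPM, with a ratio on the log2 scale of 1.30 (1.08 to 1.51). In the MHC class I list 11 of 22 genes were at least 2-fold higher, with a median of 1.00. Tap1, a subunit of the peptide transporter, had 95.03 and 216 CPM, and Nlrc5, the class I transactivator, 17.2 and 48.2 CPM. H2-Q6 (log2 ratio 1.93) and H2-Q7 (1.83) are close copies and uncertain as single genes. Cd274 (PD-L1, which inhibits T cells through PD-1) stood at 22.8 and 84.9 CPM, or 1.89 on the log2 scale (1.81 to 1.98).

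**Figure D2:**
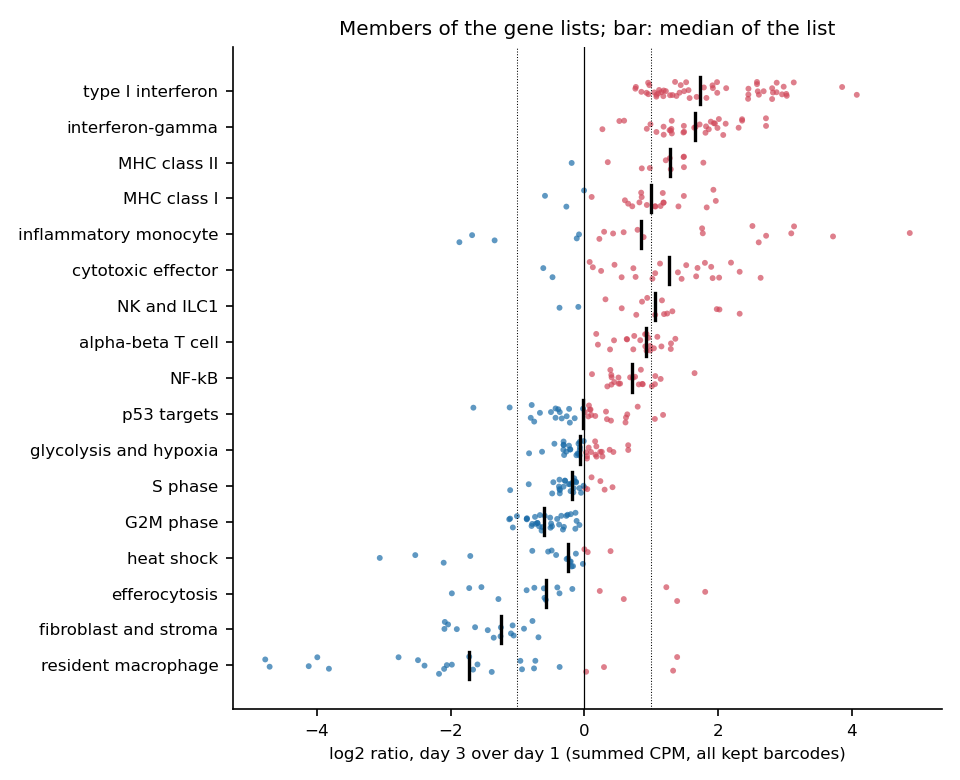
Each point is a measured member of a gene list at its log2 ratio of day 3 over day 1 in summed CPM of all kept barcodes (red above 0, blue at or below 0), black bars are list medians, and vertical scatter only separates points. The interferon lists have medians of 1.74 and 1.66, the p53 list is centred at -0.02, and the resident macrophage list has a median of -1.72 with members from -4.77 to 1.39.

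Genes of inflammatory monocytes were split. The list of 20 had a median log2 ratio of 0.84, with 9 members at least 2-fold higher and 3 at least 2-fold lower. Ly6c2, the surface protein that marks classical monocytes and is also made by some lymphocytes (chr15:75108158-75111970), was the clearest case. It was counted 1063 times on day 1 and 14175 times on day 3, which is 14.0 and 409 CPM, a log2 ratio of 4.87 (4.78 to 4.96), with 4.33 CPM in the PBS library. Plac8, another monocyte and lymphocyte gene, went from 19.2 to 254 CPM, and Chil3, a chitinase-like secreted protein, from 3.34 to 29.4 CPM. Ms4a4c stood at 139 and 848 CPM, and Ly6a, an interferon-responsive surface protein, at 287 and 1891 CPM. Ccr2, the chemokine receptor that brings monocytes out of the bone marrow, differed little, with 161 and 198 CPM (log2 ratio 0.30, 0.25 to 0.34). Fn1, the matrix protein fibronectin, was on the lower side at 127 and 50.1 CPM. Il1b, an inflammatory cytokine of monocytes, was at 636 and 1668 CPM, a log2 ratio of 1.39.

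The resident macrophage genes showed the opposite pattern. Of 26 listed genes 25 had enough UMIs, 16 were at least 2-fold lower on day 3 and 2 were at least 2-fold higher, with a median of -1.72. The summed level of the list differed less, at 8585 CPM on day 1 and 5115 CPM on day 3. That is a log2 ratio of -0.75, under 2-fold, with 6530 CPM in the PBS library. Mrc1, the mannose receptor CD206 (chr2:14229392-14332057), was at 754 CPM on day 1 and 238 CPM on day 3 (log2 ratio -1.66, -1.70 to -1.63), beside 722 CPM in the PBS library. Stab1, a scavenger receptor, went from 485 to 147 CPM. Cd163, the haemoglobin scavenger receptor, had 1049 UMIs on day 1 and 30 on day 3, 13.8 and 0.866 CPM, a log2 ratio of -3.99 (-4.57 to -3.47), or -3.24 with each barcode weighted alike. In PBS it stood at 3.56 CPM. Lyve1, a hyaluronan receptor of perivascular macrophages, was counted 344 and 9 times, and its log2 ratio of -4.12 was -2.84 when each barcode was given the same weight. Cd209f, a lectin gene, had 172 UMIs on day 1 and 0 on day 3, so that it was at least 26.1-fold lower against a floor of 3 counts per library. Timd4 and Mgl2 were the members on the higher side, with 36 and 43 UMIs and with 268 and 307 UMIs, and Timd4 dropped under 2-fold (0.74) with each barcode weighted alike.

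Genes for taking up dead cells were split. In the efferocytosis list 4 of 17 genes (23.5%) were at least 2-fold lower and 3 (17.6%) at least 2-fold higher, with a median of -0.58. Members ranged from -1.98 to 1.81, with 5 above 0, and the 2 named next are from the lower side. Gas6, which bridges dying cells to TAM receptors, was counted 6843 and 790 times (log2 ratio -1.98), and Pros1, a bridging protein of the same receptors, was at 28.6 and 11.8 CPM (log2 ratio -1.28). In the matrix and protease list 3 of 19 genes were at least 2-fold lower, none was 2-fold higher, and the median was -0.02. Its members ranged from -1.75 to 0.96, with 9 above 0. Its member Spp1, the secreted matrix protein osteopontin, went from 1634 to 604 CPM (log2 ratio -1.44). Cx3cr1, the fractalkine receptor, went from 178 to 53.4 CPM. None of the 11 broad macrophage genes that define the gate was past 2-fold. Their median log2 ratio was -0.23, with 3 members above 0, and ranged from -0.85 for Lyz2 to 0.40, with Apoe at -0.79 and C1qa at -0.19. The macrophage-gated share of barcodes, 58.4% and 47.2%, is set in part by these same 11 genes, so its lower day 3 value is no separate result.

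Heat shock genes differed through a few members. Of 19 genes, 4 were at least 2-fold lower and none higher, and the median was -0.24. Hspa1a and Hspa1b, near-identical inducible HSP70 genes that are uncertain as single genes, were at 1357 and 1110.02 CPM on day 1 and at 316 and 192 CPM on day 3. Hspb1, a small heat shock protein, was at 65.7 and 7.88 CPM, a log2 ratio of -3.06 (-3.24 to -2.88), and Hsph1, an HSP110 chaperone, at 175 and 53.7 CPM. The remaining members were within 2-fold. The median mitochondrial share of kept barcodes was 3.21% on day 1 and 2.40% on day 3, and its part in these values was not tested.

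Genes induced by p53, the transcription factor activated by DNA damage, did not move as a group. Of 33 measured targets 2 were at least 2-fold higher and 2 at least 2-fold lower, and the median was -0.02, while the summed level of the list was 2783 CPM on day 1 and 3332 CPM on day 3, a positive difference. Cdkn1a, the cell cycle inhibitor p21, was at 696 and 1074 CPM (log2 ratio 0.63, 0.61 to 0.64), with 290 CPM in the PBS library. Mdm2, the ubiquitin ligase that limits p53, was at 161 and 247 CPM, with 83.2 CPM in PBS. These genes made up the larger part of the summed gain and were under 2-fold. Pmaip1, the pro-death protein NOXA, had a log2 ratio of 1.06, and Perp, with 31 and 32 UMIs, 1.18. Sesn1 stood at 37.8 and 17.4 CPM, Eda2r at 97 and 14 UMIs, and Gdf15, a stress cytokine, at 54.3 and 41.4 CPM.

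Proliferation genes differed by small amounts. The share at least 2-fold lower was 11.8% in the G2M list and 3.23% in the S phase list, beside 8.5% of all genes tested. The median log2 ratio over all genes was -0.10. In the G2M list, 4 of 34 genes were at least 2-fold lower (Hmmr, Anln, Cenpf and Nusap1, with log2 ratios of -1.12, -1.11, -1.07 and -1.01), none was 2-fold higher, and the median was -0.61. Mki67, a marker of cycling cells, was at 43.8 CPM on day 1 and 26.9 CPM on day 3, beside 121 CPM in the PBS library. The S phase list had a median of -0.18 with 1 gene of 31 at least 2-fold lower, Ccne2, whose log2 ratio of -1.11 was -0.51 without the barcodes of highest UMI total. In lymphoid-gated barcodes with at least 0.2% lymphoid UMIs, the S phase median was 0.23 and the G2M median -0.31. Metallothioneins, which bind metal ions including platinum, were lower, with Mt1 at 711 and 317 CPM and Mt2 at 44.6 and 15.4 CPM. Glycolysis and hypoxia genes had no member past 2-fold among 36, with a median of -0.07 and a summed log2 ratio of 0.08.

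Lymphocyte effector genes were higher in the sums. In the cytotoxic effector list 15 of 24 genes were at least 2-fold higher and none lower, with a median of 1.27. Gzmb, the protease granzyme B of killer lymphocytes (chr14:56258838-56262260), was at 37.3 CPM on day 1 and 232 CPM on day 3 (log2 ratio 2.64, 2.58 to 2.70), and at 8.32 CPM in PBS. Gzma was at 29.1 and 146 CPM (log2 ratio 2.33, and 1.71 with each barcode weighted alike), Gzmc at 27.2 and 125 CPM, and Prf1, the pore-forming perforin, at 6.41 and 23.9 CPM. Xcl1, a chemokine for cross-presenting dendritic cells, was at 21.0 and 83.1 CPM. Trdc, the constant region of the delta T cell receptor, went from 6.73 to 29.7 CPM and Il17a from 100 to 247 UMIs. Cd8a stood at 8.84 and 19.7 CPM, whereas Foxp3, the factor of regulatory T cells, differed less, at 12.7 and 15.3 CPM.

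The share of lymphoid-gated barcodes was also higher on day 3. The 16 lymphoid genes that define the gate summed to 463 CPM on day 1 and 1058 CPM on day 3, and lymphoid-gated barcodes were 5.21% and 13.6% of those kept. The same genes set both values, so the share is no separate result. It also depends on the limit of 1% macrophage UMIs. The median macrophage share of gated barcodes was 0.640% on day 1 and 0.319% on day 3. Within 10% of that limit lay 68 and 56 barcodes with at least 5 lymphoid UMIs. Without barcodes that held RNA of both kinds, some lymphocyte ratios were larger, with Xcl1 at 2.85, Trdc at 2.93, Il17a at 3.16, Ifng at 2.33 and Gzmc at 2.80. These barcodes were defined by at least 5 lymphoid UMIs, and Trdc is 1 of the genes counted. They were 13.7% of kept barcodes on day 1 and 9.53% on day 3. Their removal thus takes out lymphocyte RNA by its rule, unequally between the days, and the larger ratios are no separate result. The sort gate genes followed in part: Thy1, which encodes CD90, was at 31.9 and 59.0 CPM, Il7r, which encodes CD127, at 102 and 157 CPM, and Ptprc, which encodes CD45, at 432 and 488 CPM. After each barcode was thinned to 2000 UMIs, Thy1 was seen in 6.18% of 6929 barcodes on day 1 and in 9.62% of 4399 on day 3, with 555 and 565 shallower barcodes left out. The unthinned shares were 16.3% and 17.2%.

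Within macrophage-gated barcodes the interferon pattern was of the same size. Of 11415 genes tested there 449 (3.93%) were at least 2-fold higher and 757 (6.63%) at least 2-fold lower. In the type I interferon list 45 of 54 genes were at least 2-fold higher, with a median of 1.72, and in the interferon-gamma list 28 of 32, with a median of 1.65. MHC class II had a median of 1.41, and 7 of 9 genes were at least 2-fold higher. Ly6c2 was at 5.63 CPM on day 1 and 254 CPM on day 3, and Plac8 at 11.04 and 158 CPM. The resident macrophage list had a median of -1.43 with 13 of 21 genes at least 2-fold lower, so the lower side was also present in barcodes chosen for macrophage RNA. Mrc1 had a log2 ratio of -1.43 there, Cd163 -3.85 and Spp1 -1.58. Cdkn1a had a log2 ratio of 0.78.

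**Figure D3:**
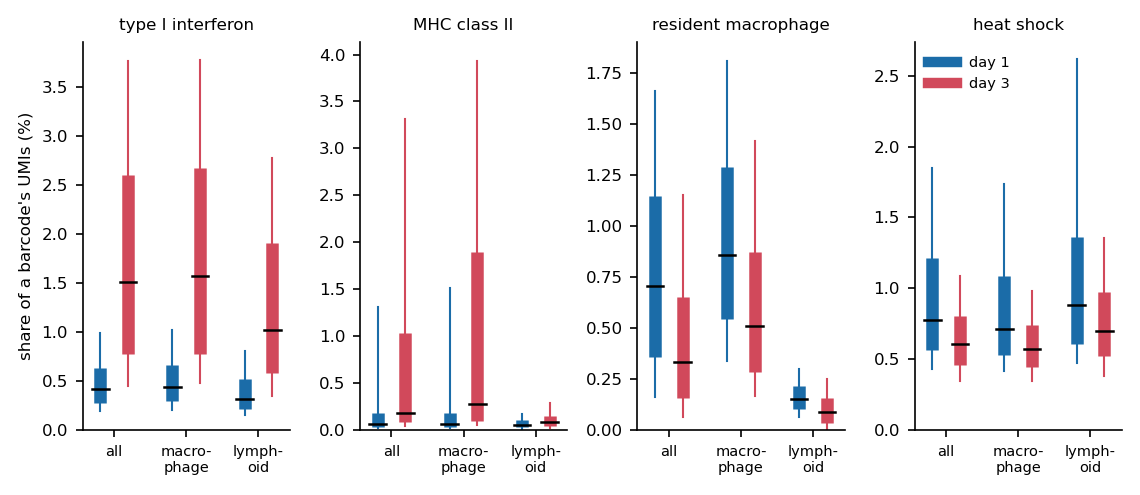
The share of each barcode's UMIs that belongs to a gene list is shown by library and gate, with thick bars from the 25th to the 75th percentile, thin lines from the 10th to the 90th and black lines at the median. The type I interferon share had a median of 0.414% on day 1 and 1.51% on day 3 over all kept barcodes, and the resident macrophage share 0.706% and 0.334%.

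The interferon difference was seen in the middle of the barcode distribution and not in its upper tail alone. In macrophage-gated barcodes the median share of UMIs from the type I interferon list was 0.439% on day 1 and 1.57% on day 3, and the day 3 lower quartile, 0.773%, was above the day 1 upper quartile, 0.663%. The 90th percentile of day 1 was 1.02%, so the libraries overlapped in their tails. MHC class II was spread more unevenly over barcodes. Its median share was 0.0626% and 0.274% in macrophage-gated barcodes, while the upper quartile was 0.179% and 1.89% and the 90th percentile 1.52% and 3.93%. The inflammatory monocyte list had medians of 0.159% and 0.441%, and the resident macrophage list 0.858% and 0.509%.

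Detection was then compared at equal depth. In macrophage-gated barcodes thinned to 2000 UMIs, Isg15 was seen in 16.3% on day 1 (15.2 to 17.4%; 37.2% unthinned) and in 63.5% on day 3 (61.5 to 65.6%; 82.1% unthinned). Ly6c2 was seen in 1.101% and 21.8%, against 9.42% and 30.5% in lymphoid-gated barcodes. Cxcl10 was in 14.0% and 46.6%. Mrc1 went from 68.6% (67.2 to 70.1%) to 32.1% (30.1 to 34.1%), and in lymphoid-gated barcodes from 14.4% to 2.71%. Hspa1a was in 63.2% and 28.2%. Ptprc was similar on both days, at 56.9% and 56.4%. Gzmb was in 0.933% and 2.48% of macrophage-gated barcodes, far under its 34.6% and 49.3% in lymphoid-gated barcodes, and such low shares are read as background.

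**Figure D4:**
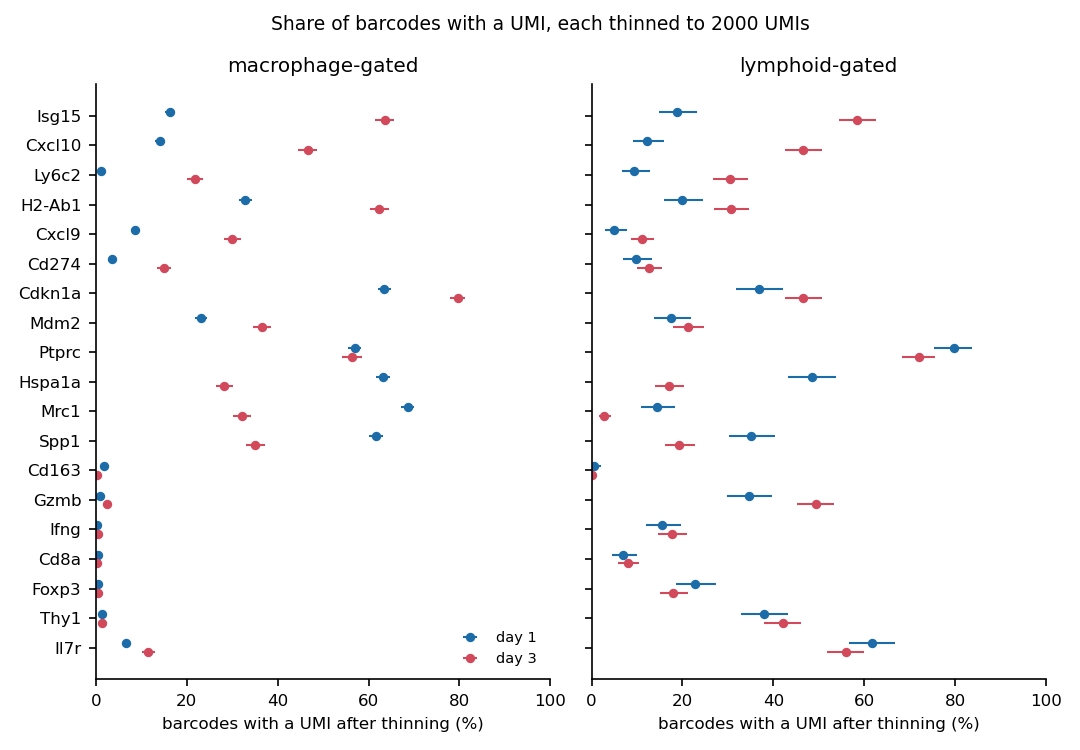
Points are the share of barcodes with at least 1 UMI of a gene after thinning each to 2000 UMIs, in macrophage-gated (left) and lymphoid-gated (right) barcodes of day 1 (blue) and day 3 (red), with exact 95% binomial intervals. Isg15 stood at 16.3% and 63.5% in macrophage-gated barcodes and at 18.8% and 58.5% in lymphoid-gated ones, and Mrc1 at 68.6% and 32.1% on the left.

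In lymphoid-gated barcodes 226 of 7778 genes (2.91%) were at least 2-fold higher on day 3 and 264 (3.39%) at least 2-fold lower. With DESeq2 size factors the split was 269 and 210, since scaling factors added 0.10 to 0.11 to all log2 ratios of these barcodes and under 0.1 elsewhere. A few deep barcodes weighed on the lower side. On day 1, 28 of the 390 gated barcodes had under 0.2% lymphoid UMIs, with a median of 12200 UMIs and 26.5% of the gate's UMIs. On day 3, 25 of 676 did, with a median of 9377 UMIs and 10.6% of the gate's UMIs. Without the 28, the gate's day 1 UMIs of Tm4sf1 went from 535 to 12, of Cdkn2a from 116 to 1 and of the mast cell gene Cpa3 from 108 to 23. Requiring at least 0.2% lymphoid UMIs, a limit chosen after seeing the data, left 362 and 651 barcodes, 239 higher genes (3.38% of 7075) and 105 lower genes (1.48%). The values that follow use this limit.

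Interferon genes were higher in these lymphoid barcodes too. In the type I interferon list 44 of 53 genes were at least 2-fold higher and none lower, with a median of 1.53, and in the interferon-gamma list 16 of 27, with a median of 1.03. Isg15 was at 173 CPM on day 1 and 976 CPM on day 3. Slfn4 was counted 13 and 327 times. Free RNA in the droplets was not measured, and levels of macrophage genes in the lymphoid barcodes are given beside those of the interferon genes. The lymphoid level of Mrc1 was 9.57% of the macrophage-gated level on day 1 and 6.91% on day 3. That of Lyz2 was 11.8% and 8.61%, but Lyz2 is among the genes that the lymphoid gate limits. That of Spp1 was 14.4% and 43.97%. For Isg15 these values were 125% and 87.6%, for Ifit1 119% and 116%, and for Slfn4 51.8% and 52.7%. For H2-Ab1 they were 17.6% and 17.1%. The part of free RNA and of barcodes with more than 1 cell in these levels was not tested.

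Effector genes differed less inside the lymphoid barcodes than in the whole sums. Gzmb stood at 656 CPM on day 1 and 1793 CPM on day 3, with a log2 difference of 1.45, against 2.64 over all kept barcodes. Gzma had 1.14, Xcl1 1.29, Prf1 1.03 and Ifng 0.70. In the cytotoxic list 5 of 22 genes were at least 2-fold higher and 1 lower, with a median of 0.40. The alpha-beta T cell list, which shares genes such as Cd3e with the gate, had a median of 0.10 with none of 22 genes past 2-fold, where all kept barcodes gave 0.92 and 6 of 22. Foxp3 had a log2 ratio of -0.51 and Il7r -0.48. Ly6c2 and Plac8, monocyte genes above, were more abundant here than in macrophage-gated barcodes, at 124 and 786 CPM for Ly6c2.

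**Figure D5:**
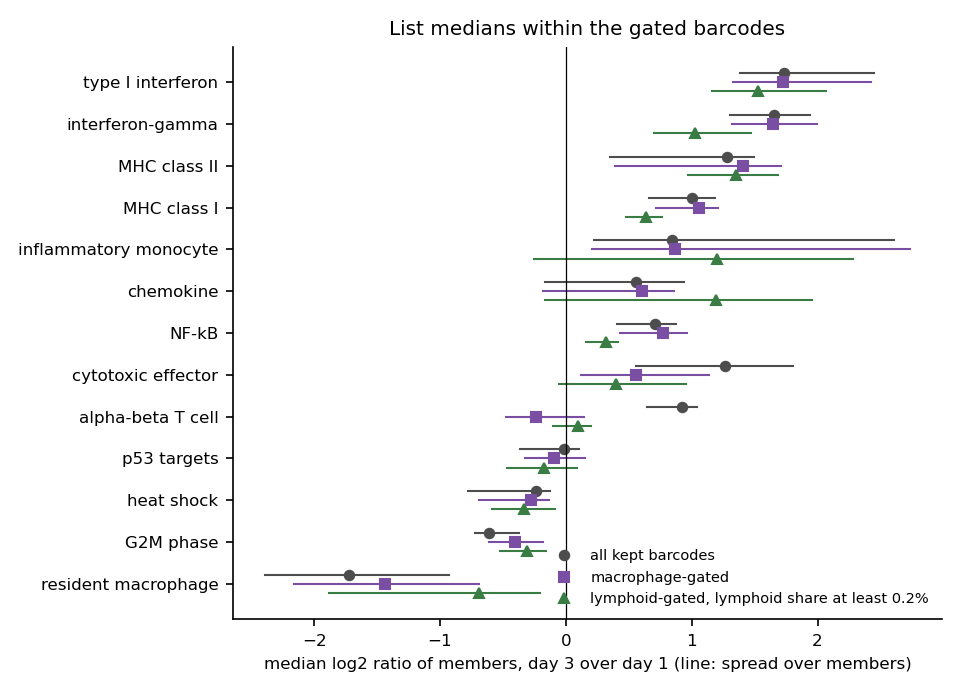
Symbols are the median log2 ratio of day 3 over day 1 over the measured members of each list, in all kept barcodes, macrophage-gated barcodes and lymphoid-gated barcodes with at least 0.2% lymphoid UMIs, and lines are order-statistic intervals of the spread over members. The type I interferon medians are 1.74, 1.72 and 1.53, and the cytotoxic effector medians are 1.27, 0.56 and 0.40.

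Of 6941 genes counted in both macrophage-gated barcodes and lymphoid barcodes at the 0.2% limit, 128 were at least 2-fold higher in both, which is 46.4% of the 276 higher in the former and 55.9% of the 229 higher in the latter. They include Isg15, Ifit1, Ifit3, Rsad2, Irf7, Slfn4, Cxcl10 and Ms4a4c. On the lower side 31 genes were shared, 23.8% of 130 and 31.3% of 99, among them Hspa1a, Hspa1b, Mrc1 and Stab1. The base for this overlap is the 6941 genes, of which 276 and 229 were at least 2-fold higher and 130 and 99 lower. Over all 11415 and 7075 genes tested in each set, another base, 3.93% and 3.38% were at least 2-fold higher and 6.63% and 1.48% lower. Shared genes on both sides include macrophage genes, such as Acod1 on the higher side and Mrc1 and Stab1 on the lower. The higher side also includes the lymphocyte genes Gzma, Gzmb and Gzmc, which were low in macrophage-gated barcodes. Their levels there were 3.43, 4.45 and 2.61 CPM on day 1 and 7.55, 11.4 and 5.89 CPM on day 3. The part of free RNA in this overlap was not tested. In the original lymphoid gate, with the deep barcodes, 7633 genes were counted in both, and 131 higher and 82 lower genes were shared.

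Markers of other cell types differed in both directions. In the fibroblast and stroma list 12 of 15 genes were at least 2-fold lower, with a median of -1.25 and a summed level of 290.2 CPM on day 1 and 120.02 CPM on day 3. Of 11 mast cell genes, summed at 344 and 165 CPM, 6 were at least 2-fold lower, with Mcpt2, a mast cell protease, at 1640 and 31 UMIs. Of 9 measured neutrophil genes, summed at 68.6 and 49.7 CPM, 5 were at least 2-fold lower, with S100a9 at 855 and 39 UMIs. The list median was -2.09, but 3 members were above 0, the highest at 0.74. Ngp, a neutrophil granule gene, had 223 and 0 UMIs, at least 33.9-fold lower, but 44.4% of its day 1 UMIs came from 1 barcode. In the endothelial list 8 of 13 genes were at least 2-fold lower, with Plvap at 570 and 34 UMIs, whereas Kdr was higher at 389 and 771 UMIs, and the sum differed little, at 71.7 and 67.1 CPM. In macrophage-gated barcodes the endothelial sum was higher on day 3, at 33.0 and 53.7 CPM. Crabp1 and Fst had log2 ratios of -2.73 and -1.30. Without the barcodes of highest UMI total the Crabp1 ratio was -1.49. On day 3 a single barcode held 76.1% of the Fst UMIs, and without barcode sequences that occur in both libraries its ratio was -3.35. Of 5 measured B and plasma cell genes, summed at 30.0 and 57.7 CPM, 3 were at least 2-fold higher and none lower. Of 10 dendritic cell genes 6 were at least 2-fold higher and 1 lower, among them Ccr7 at 40.0 and 121 CPM and Ccl22 at 270 and 387 UMIs. The part of these rare cells in the ratios over all kept barcodes was not tested.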

How the data were processed

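The deposited files hold raw counts of UMIs per gene and barcode, whole numbers in sparse matrices, per the file headers. Tools listed, per the submitters' processing notes, are Cell Ranger 3.1.0 and Seurat 3.1.2 on mm10, with no role stated. Members and gene lists were chosen with earlier results of these data known. Counts of kept barcodes were summed per library and scaled to CPM. Genes with at least 50 UMIs over both libraries were compared, and 2-fold was the limit for a call. Ratio intervals are exact conditional binomial and share intervals Clopper-Pearson, both at 95%. The scripts ran in Python 3.11.15 with scipy 1.17.1 and pandas 2.3.3, and were tested on simulated data. Scaling alternatives came from edgeR 4.0.16 and DESeq2 1.42.0 in R 4.3.3, and no count test was run.

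The named genes are 27 core genes, the 15 highest and 15 lowest over all kept barcodes by the interval bound nearer to 1, the 10 highest and lowest per gate, and up to 6 members per list with the largest ratios. This gave 309 genes, all with a position in GENCODE vM21. Gm and Rik models, mitochondrial and ribosomal genes and receptor segments were left out of the ranking. Shared barcodes and a stricter lymphoid gate were alternatives chosen after seeing the data. No doublet caller was run. Alternatives removed barcodes of highest UMI total or with mixed RNA instead. Promoters came from RefSeq (GRCm38.p6). The intervals state counting error only and leave out the spread between barcodes, tumours and libraries. Free RNA was not subtracted.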

Additional observations from a re-analysis of the deposited data

Results flagged for a closer look

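Genes at least 2-fold in opposite directions in macrophage-gated and lymphoid-gated barcodes, with counting intervals that exclude equality on both sides, numbered 5. Ltf, which encodes lactoferrin, had a log2 ratio of -1.89 in macrophage-gated barcodes and 1.16 in lymphoid-gated ones. The other four, Cnn3, Lpar1, Sgms2 and Tnfrsf12a, were higher in macrophage-gated barcodes, with log2 ratios of 1.27, 1.41, 1.14 and 1.04, and lower in lymphoid-gated barcodes, with -1.61, -1.87, -2.58 and -1.52. These values come from the original lymphoid gate, which includes the 28 deep day 1 barcodes and the 25 of day 3. With at least 0.2% lymphoid UMIs none of the 5 was opposite past 2-fold. Ltf then had a log2 ratio of 0.88 and Tnfrsf12a 0.15, and the remaining 3 had fewer than 50 UMIs. These genes were chosen after their values were seen, each side is 1 library per day, and the difference between the gates was not tested.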

How the results depend on the processing

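Each count has 1 library a side, and no replicate could be left out. No paired analysis was possible because each group has 1 library. The counts followed the fold and the minimum count. At 3-fold, higher and lower genes numbered 205 and 459 over all kept barcodes, 174 and 277 in macrophage-gated and 87 and 96 in lymphoid-gated barcodes. At 1.5-fold they numbered 1228 and 2251, 952 and 1839, and 574 and 762. With at least 200 UMIs the lower genes numbered 569 over all, 358 in macrophage-gated and 56 in lymphoid-gated barcodes (111 higher). With at least 20 UMIs they numbered 1180 in macrophage-gated and 595 in lymphoid-gated barcodes (360 higher). Thinned to 2000 UMIs per barcode, fewer genes reached the minimum, and the lower genes numbered 540, 401 and 51 (143 higher in lymphoid-gated barcodes). A macrophage share of at least 5% left 475 lower genes in macrophage-gated barcodes. In lymphoid-gated barcodes a macrophage share of at most 3% gave 413 lower genes, leaving out the barcodes of highest UMI total 109, and a lymphoid share of at least 0.2%, added after seeing the data, 105. The G2M median was -0.74 with at most 5% mitochondrial UMIs. The S phase median was -0.10 with TMM factors, -0.09 with DESeq2 size factors and -0.03 without the barcodes of highest UMI total. Where not given above, the cause was not tested. The type I interferon median ranged from 1.73 to 1.82 over the settings run, the resident macrophage median from -1.85 to -1.63 and the p53 median from -0.20 to 0.07. All 195 named genes past 2-fold kept their direction under each setting in which they had enough UMIs. Most were picked by their ratios in these same counts, so a kept direction is no independent support. Past 2-fold stayed 176 of 195 with each barcode weighted alike and 175 of 186 without the barcodes of highest UMI total. Thinned to 2000 UMIs, 148 of 159 did. Single genes moved most with at most 5% mitochondrial UMIs, where the largest shift among them was 2.42 on the log2 scale, and without shared barcodes, where it was 2.05. With each barcode weighted alike it was 1.90, for Igfbp5, whose log2 ratio of -2.41 became -0.51. Both the stricter lymphoid gate and the removal of shared barcodes were added after seeing the data.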
